A study of Bos taurus with 8 samples.

Results

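The genes of lower glycolysis and of glucose uptake were followed in bovine embryonic stem cells (bESCs), pluripotent cells derived from the embryo, during culture on feeders and without them. The 10 genes were chosen by name from the pathway, with earlier results of these data known: the aldolases ALDOA and ALDOC, TPI1, PGK1, PGAM1, the enolases ENO1 and ENO2, the pyruvate kinase PKM, and the glucose transporters SLC2A1 and SLC2A3. They are 10 of 32637 genes with counts, and all 10 were among the 15744 genes that passed the filter on low counts. bESC lines A, C, D and E were each sequenced on MEF (irradiated mouse embryonic fibroblasts, a feeder layer) at passage 15 to 17 and in feeder-free conditions on vitronectin, an adhesion protein that coats the plate, at passage 20 to 22, with 4 libraries per condition. All lines were of XX genotype and all cultures were in 5% O2, in the NBFR medium, which contains FGF2 and the WNT pathway inhibitor IWR-1. In the sample records the medium of either condition carries Activin A, while the study's methods describe Activin A as an addition for feeder-free culture. Passage, matrix and possibly Activin A therefore changed together, and their parts cannot be told apart. The study's methods mention sequencing batches without a correction for them, and whether batch also differed between conditions was not examined here. Libraries from MEF cultures can also hold RNA of the mouse feeder cells.

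Glycolysis splits glucose into pyruvate in the cytosol and yields ATP without oxygen. Glucose enters through facilitative transporters of the SLC2A family, is phosphorylated and rearranged, and is then cut by aldolase into a pair of triose phosphates, from which the lower part of the pathway gains ATP at the phosphoglycerate kinase and pyruvate kinase steps. Primed pluripotent stem cells are known for a high use of glycolysis, and most genes of the pathway are textbook targets of the hypoxia-inducible factors (HIF), which accumulate when oxygen is low.

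The MEF libraries held 44268717 to 54296425 counts and the feeder-free libraries 49671478 to 102351560, of which line D had the most. Pluripotent cell identity was present in all libraries: the summed level of 9 marker genes with counts was 5416 to 6421 CPM (TMM-scaled counts per 1e6 counts) on MEF and 4816 to 5827 in feeder-free conditions, with 0 of 9 called (6 at an unadjusted p under 0.05, 5 of them lower), and with POU5F1 at 2048 and 1850.0 CPM and DNMT3B at 1002 and 1048 CPM on average. Of all tested genes, 11.4% were lower and 10.2% higher at that unadjusted p. The median log2 fold change of the 9 was -0.29, with 6 below 0 and 3 above. SALL4 was the lowest, at -0.58, with an adjusted p of 0.0426 from edgeR's quasi-likelihood test, but its fold was under 1.5. EPCAM was the highest, at 0.53 (adjusted p = 0.102, same test). A second fit with line as a term (the paired fit) also called 0 of 9. At folds under 1.5, SALL4 (adjusted p = 0.00614, same test), SOX2 (0.0436) and LIN28B (0.0456) were lower in it, and EPCAM (0.00910) higher. Each went the same way in 4 of 4 lines. At any fold, 8.12% of tested genes passed an adjusted p under 0.05 as lower in the paired fit. Of 25 fibroblast markers, 23 were tested, with a median log2 fold change of -0.10, and 1 was called, TAGLN, an actin-binding protein of contractile cells, at 56.3 CPM on MEF and 1057 in feeder-free conditions. Their summed level was 1231 to 1524 CPM on MEF and 932 to 4494 CPM in feeder-free conditions. At an unadjusted p under 0.05, 2 were lower and 4 higher in feeder-free conditions, against 11.4% and 10.2% of tested genes. Of the fibroblast markers the paired fit called 2 lower, COL1A2 (2.71 and 0.157 CPM) and PRRX1 (1.84 and 0.175 CPM). It called 4 higher, TAGLN, ACTA2 (6.11 and 99.8 CPM), COL3A1 (0.769 and 4.69 CPM) and POSTN (0.183 and 0.882 CPM). Of all tested genes, the unpaired fit called 1.00% lower and 0.724% higher, and the paired fit 4.53% and 5.52%. The remaining 2 markers, TWIST2 and FAP, had 0 counts in all 4 feeder-free libraries and at most 32 and 6 counts on MEF. Markers of other lineages were low or absent: the hypoblast sum was at most 14.2 CPM (FOXA2 and HNF4A the highest, AFP at 0), the mesoderm sum at most 11.8 CPM (EOMES and TBX6 the highest) and the trophoblast sum at most 6.20 CPM (CDX2, PAG2 and IFNT2 at 0, PTGS2 called higher at 0.278 and 1.51 CPM). The neural sum was 219 to 343 CPM on MEF and 136 to 210 CPM in feeder-free conditions, with NEUROD1 at 0 and DCX, a microtubule protein of young neurons, called lower at 47.7 and 18.2 CPM. Most of this sum came from TUBB3, at a mean of 218 and 161 CPM, which was lower in 4 of 4 lines but not called. These sums cover tested genes alone: 2 of 6 hypoblast, 3 of 6 mesoderm, 4 of 8 trophoblast and 3 of 6 neural markers. Besides PTGS2 and DCX, the paired fit called EOMES higher (3.14 and 7.75 CPM, adjusted p = 0.0307, edgeR's quasi-likelihood test). It called GATA2, a trophoblast marker, lower (1.12 and 0.421 CPM, adjusted p = 0.0447, same test). Both went the same way in 4 of 4 lines. The part of any other cell type in the values of glycolysis genes was not tested.

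All 10 genes had a lower mean in feeder-free conditions, with log2 fold changes from -1.19 to -0.16 and a median of -0.51, against 0.01 for all tested genes. The test was the quasi-likelihood test of edgeR with Benjamini-Hochberg adjustment over all 15744 genes, and calling a gene took an adjusted p under 0.05 together with a 1.5-fold difference or more. ENO1 was called lower, so 1 of 10 genes passed, against 1.00% of all tested genes called lower and 0.724% called higher. Without the fold threshold it was also 1 of 10, against 1.18% of tested genes, and 8 of 10 had an unadjusted p under 0.05 and a lower value, against 11.4%. Since the same 4 lines were grown in both conditions, a fit with line as a term was made beside the unpaired one. In this paired fit 4 of 10 genes were called lower, SLC2A3, SLC2A1, ENO1 and PGK1, against 4.53% of tested genes, and 0 of 10 were called higher, against 5.52%, with 0 of 10 higher at an unadjusted p under 0.05 in either fit, against 10.2% of tested genes in the unpaired and 16.1% in the paired fit. At any fold 8 of 10 passed an adjusted p under 0.05 as lower in the paired fit, against 8.12%, and 8 of 10 had an unadjusted p under 0.05, against 16.0%. By library, 9 of 10 genes were lower in all 4 lines, against 20.7% of tested genes, and 7 of 10 had every feeder-free library below every MEF library, against 8.36%. In bulk RNA, fewer cells that express a gene and less of its RNA per cell cannot be told apart.

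**Figure D1:**
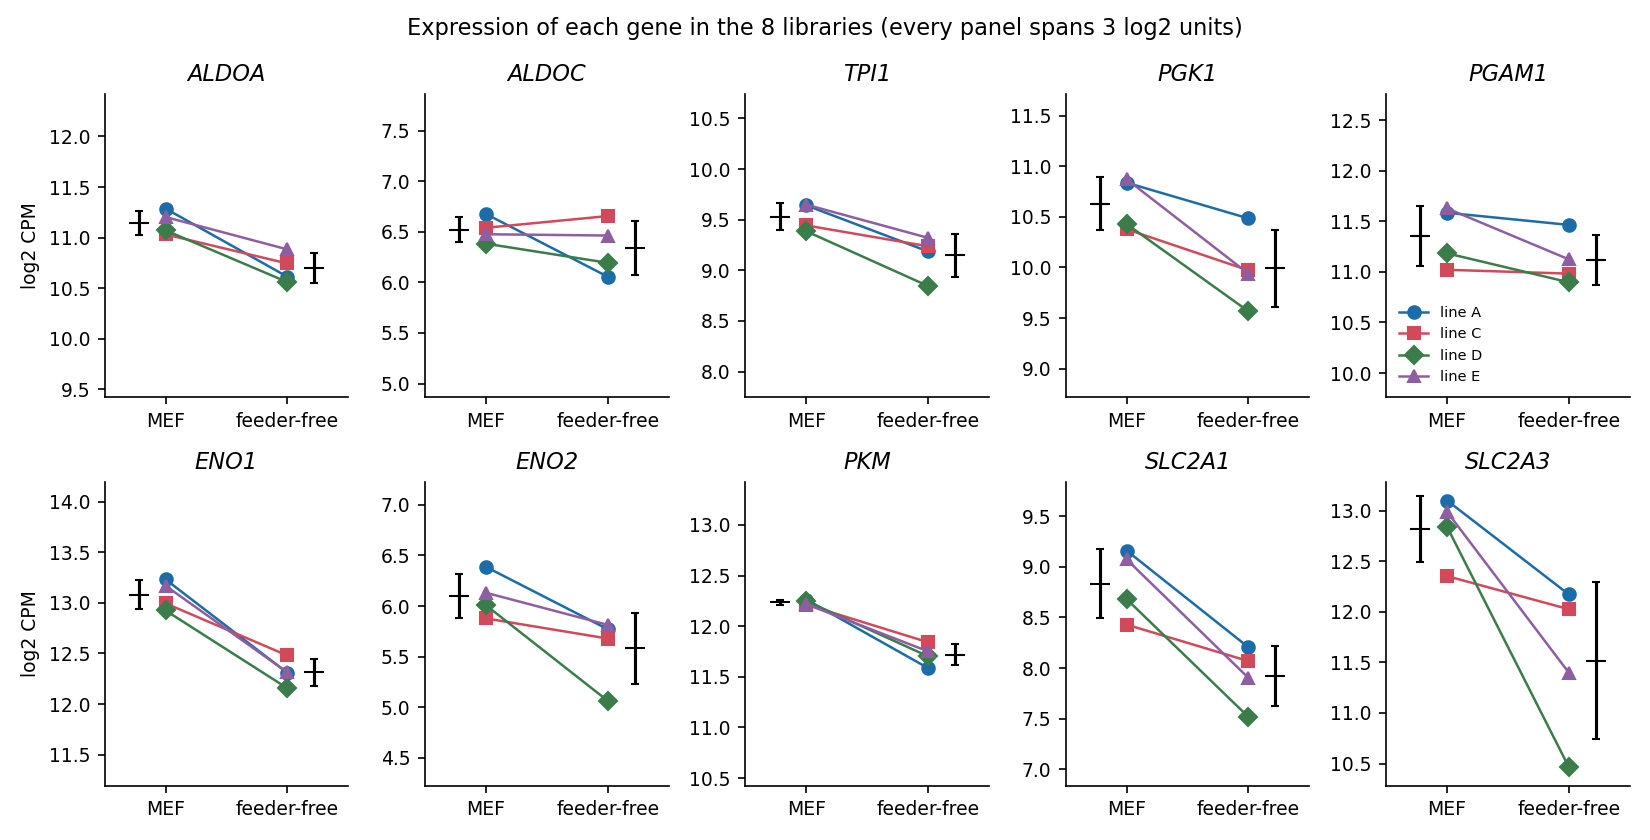
Log2 CPM of the 10 genes in the 8 libraries, with MEF at left and feeder-free at right of each panel and a line joining the libraries of the same cell line. Horizontal ticks with bars are the mean and SD of 4 libraries, and each panel spans 3 log2 units. The lines slope down in every panel except for ALDOC, where line C slopes up from 93.0 to 101 CPM.

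The plot of the genes by library shows these differences line by line, and the levels below are given on the CPM scale, which is not per length of transcript, so that levels are compared between conditions and not between genes. SLC2A3 encodes GLUT3, a glucose transporter of high affinity. On MEF it stood at 8774 CPM in line A, 5229 in C, 7323 in D and 8119 in E, and in feeder-free conditions at 4611 in A, 4168 in C, 1413 in D and 2698 in E. Every feeder-free library was below every MEF library, and lines D and E were the lowest without feeders. The mean went from 7361 ± 1541 CPM to 3223 ± 1457 CPM (SD, n = 4), or from between 0.530% and 0.826% of a library's counts to between 0.141% and 0.463%. Its log2 fold change was -1.19 (SE 0.34, 95% interval -1.96 to -0.42), with an adjusted p of 0.0909 from edgeR's quasi-likelihood test, and in the paired fit it was -1.30 (SE 0.27) with an adjusted p of 0.0138, or 0.0614 with line E left out. SLC2A3 was also the gene with the widest spread between feeder-free lines, the highest being 3.26 times the lowest, with a coefficient of variation of 45.2%.

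SLC2A1 encodes GLUT1, the transporter of basal glucose uptake in most cell types. Its level on MEF was 572 CPM in line A, 345 in C, 410.1 in D and 538 in E, against 295, 268, 183 and 239 in feeder-free conditions. The groups did not overlap, and the smallest difference was again in line C. The log2 fold change was -0.92 (SE 0.20, 95% interval -1.38 to -0.46), with an adjusted p of 0.0517 from edgeR's quasi-likelihood test, just over the threshold, and the paired fit gave -0.91 (SE 0.14) with an adjusted p of 0.00470. The ratio of SLC2A3 to SLC2A1 was nearly equal in both conditions for lines A and C, with changes of 0.03 and 0.03 on the log2 scale, and was lower in feeder-free conditions for D and E, with changes of -1.21 and -0.42. The mean change was -0.39 (two-sided exact permutation test over libraries, n = 4 per condition, p = 0.286, adjusted p = 0.286 over the 3 ratios tested). An exact sign-flip test within lines gave p = 0.5.

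The aldolases cut fructose 1,6-bisphosphate. ALDOA, the isozyme of muscle and of most growing cells, was at 2498, 2094, 2152 and 2358 CPM in lines A, C, D and E on MEF and at 1567, 1716, 1511 and 1889 CPM without feeders. The groups did not overlap. Its log2 fold change was -0.45 (SE 0.13), with an adjusted p of 0.0999 from edgeR's quasi-likelihood test and 0.0228 in the paired fit, below the 1.5-fold threshold in both. ALDOC, the isozyme typical of brain, was at 102, 93.0, 83.4 and 88.9 CPM on MEF and at 66.5, 101, 73.1 and 88.2 CPM in feeder-free conditions. It was lower in 3 of 4 lines and higher in line C, the groups overlapped, and the log2 fold change of -0.16 had a 95% interval from -0.49 to 0.17 and moved from -0.07 without the feeder-free library of A to -0.27 without that of C. The ratio of ALDOC to ALDOA was higher without feeders in 4 of 4 lines, by 0.27 on the log2 scale (two-sided exact permutation test, p = 0.0571, adjusted p = 0.171 over 3 ratios, where 0.0286 is the smallest unadjusted p that 4 against 4 libraries can give). Within lines the exact sign-flip test gave 0.125, the smallest it can give for 4 lines.

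TPI1 interconverts the triose phosphates that aldolase releases. It was at 799, 696, 669 and 803 CPM in lines A, C, D and E on MEF and at 582, 603, 460 and 639 CPM without feeders, with no overlap. Line D was the lowest in both conditions. The log2 fold change was -0.38 (SE 0.14), with an adjusted p of 0.164 from edgeR's quasi-likelihood test and 0.0347 in the paired fit.

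PGK1 makes the first ATP of the pathway. On MEF it was at 1829, 1329.5, 1377 and 1872 CPM in lines A, C, D and E, and in feeder-free conditions at 1432, 1004, 758 and 980 CPM. The feeder-free library of line A lay above the MEF libraries of C and D, so the groups overlapped, while all 4 lines were lower without feeders. The log2 fold change was -0.62 (SE 0.21), with an adjusted p of 0.135 from edgeR's quasi-likelihood test, and the paired fit called it at -0.64 (SE 0.13) with an adjusted p of 0.0118, a call that was lost without line D (-0.56, adjusted p = 0.0657) or line E (-0.53, under 1.5-fold). The order of lines differed from that in ALDOA: for PGK1 the log2 ratio was lowest in E and D, at -0.93 and -0.86, and nearest to 0 in A, at -0.35, whereas A was the lowest for ALDOA, at -0.67. PGAM1, which moves the phosphate of 3-phosphoglycerate to the neighbouring carbon, was at 3069, 2077, 2325 and 3163 CPM on MEF and at 2825, 2023, 1907 and 2231 CPM in feeder-free conditions. Line C hardly differed between conditions, at -0.04, and the groups overlapped. With a log2 fold change of -0.24 (95% interval -0.67 to 0.19) and an adjusted p of 0.513 from edgeR's quasi-likelihood test, and 0.169 in the paired fit, a difference in PGAM1 was not detectable here. Its log2 fold change was -0.15 with the MEF library of E left out and -0.37 with the feeder-free one of A left out.

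Enolase makes phosphoenolpyruvate. ENO1, the broadly expressed isozyme, was at 9618, 8165, 7776 and 9211 CPM in lines A, C, D and E on MEF and at 5074, 5713, 4565 and 5089 CPM without feeders. The lowest MEF library stood well above the highest feeder-free library. The mean fell from 8692 ± 865 CPM to 5110 ± 470 CPM (SD, n = 4), or by 41.2% in the fit. The log2 fold change was -0.77 (SE 0.14, 95% interval -1.09 to -0.44), with an adjusted p of 0.0399 from edgeR's quasi-likelihood test and 0.00266 in the paired fit, and the line ratios were close to each other, at -0.92 in A, -0.52 in C, -0.77 in D and -0.86 in E. Leaving out any single library except that of line A without feeders ended the unpaired call, with adjusted p values up to 0.130, while its log2 fold change stayed between -0.82 and -0.72. ENO2, the neuronal isozyme, was at 83.7, 58.8, 64.3 and 70.1 CPM on MEF and at 54.6, 51.2, 33.4 and 56.2 CPM in feeder-free conditions, with no overlap. The lowest was line D without feeders. Its log2 fold change was -0.50 (SE 0.18), with an adjusted p of 0.152 from edgeR's quasi-likelihood test and 0.0340 in the paired fit. The ratio of ENO2 to ENO1 was higher without feeders in 3 of 4 lines and lower in D, by -0.18 on the log2 scale. Its mean change over the 4 lines was 0.25 (two-sided exact permutation test, p = 0.171, adjusted p = 0.257 over 3 ratios). Within lines the exact sign-flip test gave p = 0.25.

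PKM encodes the muscle-type pyruvate kinases, which catalyse the last step and exist as the splice forms PKM1 and PKM2. Counts per gene do not separate these forms. On MEF it was at 4916, 4750.2, 4868 and 4763 CPM in lines A, C, D and E, a coefficient of variation of 1.67%, and in feeder-free conditions at 3075, 3670, 3332 and 3447 CPM. Without feeders line A was the lowest and the coefficient of variation was 7.32%, the smallest of the 10 genes in that condition. The difference in spread between conditions was not tested. The log2 fold change was -0.51 (SE 0.12, 95% interval -0.79 to -0.23), with an adjusted p of 0.0613 from edgeR's quasi-likelihood test and 0.0107 in the paired fit, where the fold stayed under 1.5.

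**Figure D2:**
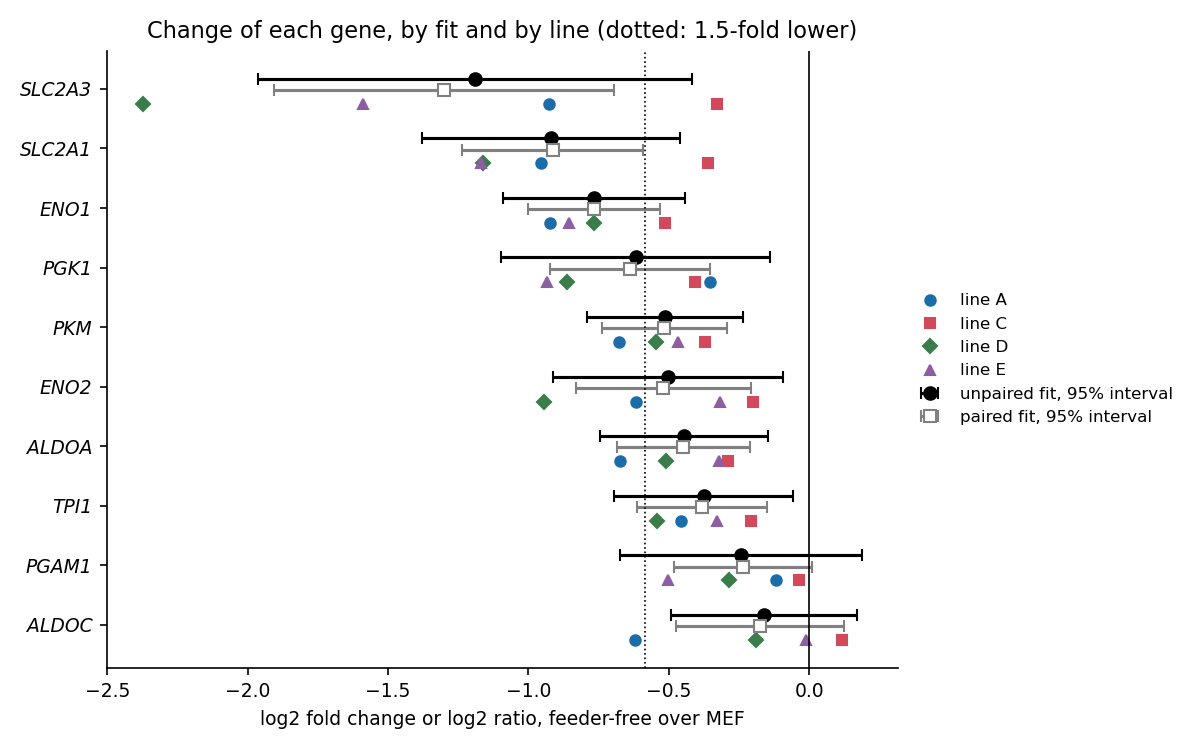
Log2 fold change of each gene, feeder-free over MEF, from the unpaired fit (black circles) and the paired fit (open squares), each with its 95% interval, and the log2 ratio within each line (coloured symbols). The dotted line marks a fold of 1.5. Intervals reach 0 for PGAM1 and ALDOC alone, and line C (red squares) lies at the right end for 9 of the 10 genes, at -0.33 for SLC2A3 against -2.37 in line D.

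The plot of changes by line shows the size of the difference in each line. With 1 library per line and condition, differences between lines in this size were not tested and cannot be told apart from variation between libraries. Over the 10 genes the median log2 ratio was -0.65 in line A, -0.31 in C, -0.66 in D and -0.49 in E, with 10, 9, 10 and 10 genes below 0, while the medians of all tested genes lay between -0.00 and 0.01 in every line. Line C, which on MEF had the lowest level of both transporters and of ALDOA, PGK1, PGAM1, ENO2 and PKM, had the median nearest to 0. Line A had the lowest ratio for ALDOA, ALDOC, ENO1 and PKM, and line D or E for the other 6 genes. Once condition means were taken out, the Pearson correlation over the 8 libraries had a median of 0.66 across the 45 pairs of genes, from -0.41 for PGAM1 with PKM to 0.93 for PGK1 with PGAM1, and 40 pairs were above 0. This is a description over 8 libraries that share their lines and scaling.

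Reads assigned to the 10 genes added up to 28783 ± 3441 CPM on MEF and 17623 ± 2467 CPM in feeder-free conditions (SD, n = 4), which is 38.8% lower. The sum was lower in all lines, by 39.3% in A, 22.2% in C, 47.4% in D and 44.0% in E. The 8 enzymes together went from 20956 ± 1939 to 14154 ± 1027 CPM, and their share lost was similar in A, D and E, at 36.0%, 34.6% and 35.4%, with 22.8% in C. The 2 transporters together went from 7828 ± 1642 to 3469 ± 1504 CPM and differed more between lines, with 20.4% lost in C, 47.5% in A, 66.1% in E and 79.4% in D. Counted as reads and not as molecules, SLC2A3 made up 37.1% of the difference in the sum, ENO1 32.1% and PKM 12.9%. No test was made of these sums, since the genes were chosen.

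**Figure D3:**
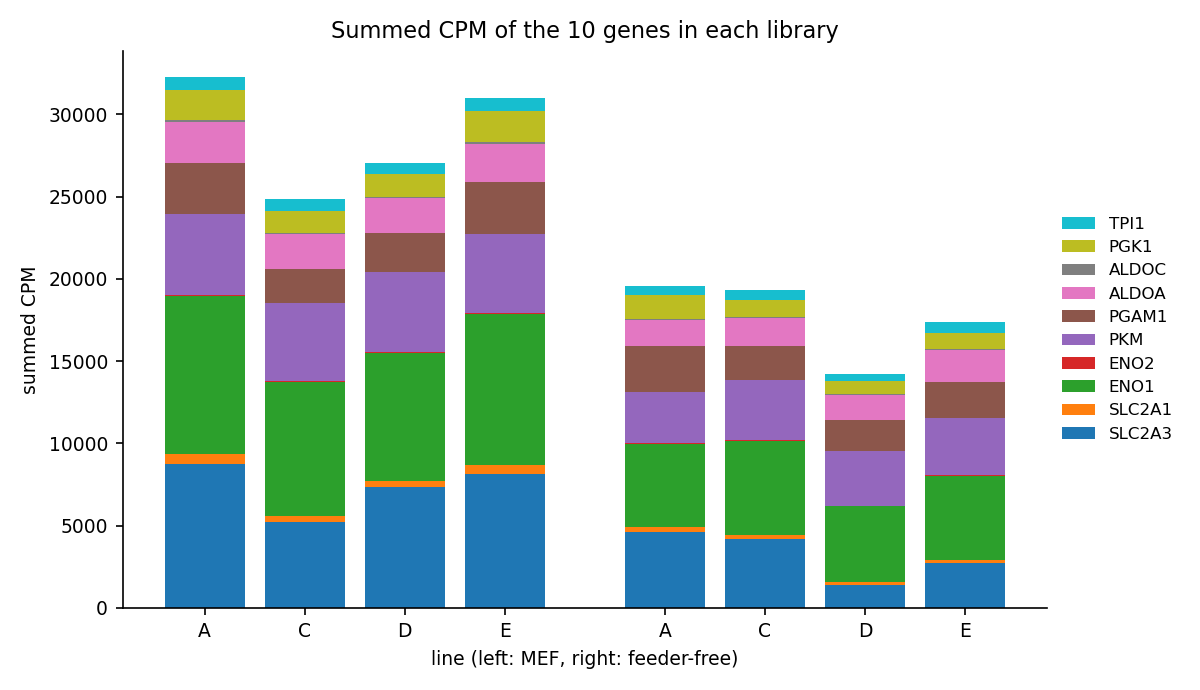
Summed CPM of the 10 genes in each library, stacked by gene from SLC2A3 at the bottom to TPI1 at the top, with the 4 MEF libraries at left and the 4 feeder-free libraries at right. The MEF bars reach 24838 to 32261 CPM and the feeder-free bars 14236 to 19582 CPM, and the bottom segment, SLC2A3, varies most between feeder-free lines.

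**Figure D4:**
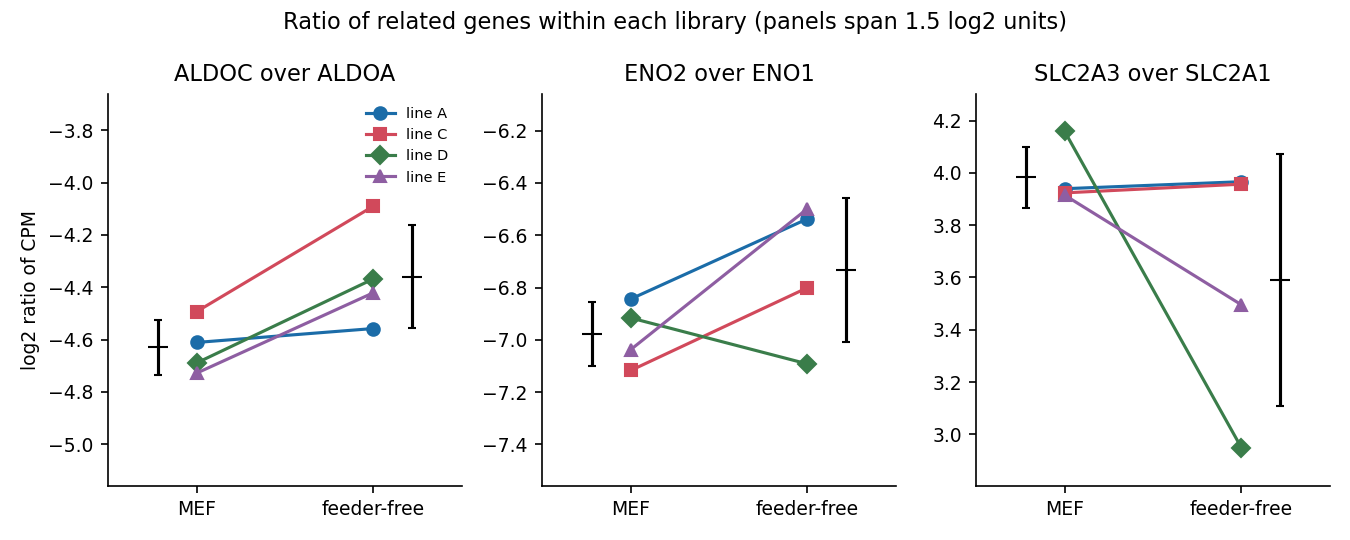
Log2 ratio of the CPM of related genes in each library, MEF at left and feeder-free at right, with a line for each cell line and the mean and SD of 4 libraries beside each group. Ratios include the lengths of the transcripts, so that their change and not their level can be read. ALDOC over ALDOA slopes up in 4 of 4 lines, and SLC2A3 over SLC2A1 is level in A and C and slopes down in D and E.

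The steps that the 10 genes leave out were examined with the same fit. Of 17 other enzymes of glycolysis, 12 were tested, 8 below 0 and 4 above, with a median log2 fold change of -0.28. Of the 12, 3 were called lower and 0 higher, against 1.00% and 0.724% of tested genes. These were HK2, a hexokinase, at -1.21 (adjusted p = 0.0399, quasi-likelihood test of edgeR), and the phosphofructokinases PFKM at -0.96 (adjusted p = 0.0353) and PFKL at -0.68 (adjusted p = 0.0391), all enzymes of the upper part. HK2 was at 381, 347, 405 and 504 CPM in lines A, C, D and E on MEF and at 202, 229, 108 and 167 CPM without feeders, with no overlap. GAPDH, the enzyme between TPI1 and PGK1 and often used as a reference gene, was at 8217, 5137, 5864 and 6599 CPM on MEF and at 4466, 4425, 3601 and 5151 CPM in feeder-free conditions. Its log2 fold change was -0.55, with an adjusted p of 0.128 from edgeR's quasi-likelihood test and 0.0215 in the paired fit. PFKP, the platelet phosphofructokinase, and ENO3, the muscle enolase, were not lower, at 0.16 and 0.11 on the log2 scale with adjusted p of 0.787 and 0.656.

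Among 11 other glucose transporters 10 were tested, with 6 below 0, 4 above and a median of -0.17, and 0 were called in either fit by edgeR's quasi-likelihood test. At an unadjusted p under 0.05 in the unpaired fit, 1 was lower and 1 higher, against 11.4% and 10.2% of tested genes. SLC2A8 averaged 15.0 CPM on MEF and 16.5 CPM in feeder-free conditions, and SLC2A6 12.7 and 18.4 CPM (log2 fold change 0.53, adjusted p = 0.229, quasi-likelihood test of edgeR). Among 5 enzymes that set fructose 2,6-bisphosphate, the main activator of phosphofructokinase, 4 were tested with a median of -0.01, and PFKFB3, which acts mainly as the kinase, was called lower. PFKFB3 was at 128, 100.3, 110.4 and 146 CPM on MEF and at 60.2, 66.3, 47.3 and 70.2 CPM without feeders, a log2 fold change of -0.99 (adjusted p = 0.0331, quasi-likelihood test of edgeR).

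Genes on the fate of pyruvate and lactate had a median of -0.11 over 12 of 13 genes tested, 7 below 0 and 5 above, and 0 called in edgeR's unpaired fit. At an unadjusted p under 0.05 in that fit, 1 was lower and 2 higher, against 11.4% and 10.2% of tested genes. LDHB, a lactate dehydrogenase subunit, averaged 1314 CPM on MEF and 1468 CPM in feeder-free conditions (log2 fold change 0.16, adjusted p = 0.553, quasi-likelihood test of edgeR), and was higher in 4 of 4 lines. SLC16A1, the lactate carrier MCT1, averaged 266 and 293 CPM. PDK1, the kinase that restrains pyruvate dehydrogenase and a HIF target, was called lower in the paired fit alone, at -0.98 with an adjusted p of 0.0212. The pentose phosphate pathway, which branches off above the aldolase step, had a median of 0.16 over 7 genes, 2 below 0 and 5 above, with 0 called in either edgeR fit. At an unadjusted p under 0.05 in the unpaired fit, 0 were lower and 1 higher, against the same shares of tested genes. TKT and PGD of this pathway averaged 603 and 269 CPM on MEF and 556 and 326 CPM in feeder-free conditions.

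Of 18 HIF targets outside glycolysis 17 were tested, with a median log2 fold change of -0.58, 14 below 0 and 3 above. In the unpaired fit 1 was called lower, AK4, a mitochondrial adenylate kinase, at -1.17 (adjusted p = 0.0391, quasi-likelihood test of edgeR), against 1.00% of tested genes. At an unadjusted p under 0.05 in that fit, 7 were lower and 0 higher, against 11.4% and 10.2% of tested genes. The paired fit called 6 of 17 lower and 0 higher, against 4.53% and 5.52% of tested genes. Those called were AK4, the mitophagy receptors BNIP3 and BNIP3L, the mTORC1 inhibitor DDIT4, the HIF prolyl hydroxylase EGLN1 and the MYC antagonist MXI1. At an unadjusted p under 0.05 in the paired fit, 12 were lower and 1 higher, against 16.0% and 16.1%. Line medians were -0.46 in A, -0.30 in C, -0.81 in D and -0.88 in E, so that line C again had the smallest. CA9 and VEGFA, widely used hypoxia markers, did not pass, at 0.66 and -0.40 on the log2 scale with adjusted p of 0.311 and 0.454.

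Of 14 regulators of glycolysis genes, 13 were tested with a median of -0.38, 11 below 0 and 2 above, and 0 were called in edgeR's unpaired fit. At an unadjusted p under 0.05 in that fit, 7 were lower and 1 higher, against 11.4% and 10.2% of tested genes. HNRNPA1 and HNRNPA2B1, splicing factors that favour PKM2 over PKM1, averaged 2341 and 1239 CPM on MEF and 1789 and 1209 CPM in feeder-free conditions. The paired fit called 4 lower, HIF3A, VHL, TXNIP and ARRDC4, and 1 higher, MYC, against 4.53% and 5.52% of tested genes. TXNIP and ARRDC4 are glucose-responsive arrestins that restrain glucose uptake, and TXNIP was at 130.1, 74.3, 71.2 and 101 CPM on MEF and 52.3, 36.0, 10.7 and 51.2 CPM without feeders. The transcript of HIF1A itself averaged 290.4 CPM on MEF and 238 CPM in feeder-free conditions (log2 fold change -0.29, adjusted p = 0.178, quasi-likelihood test of edgeR), and EPAS1, which encodes HIF-2α, had at most 20 counts in any library.

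**Figure D5:**
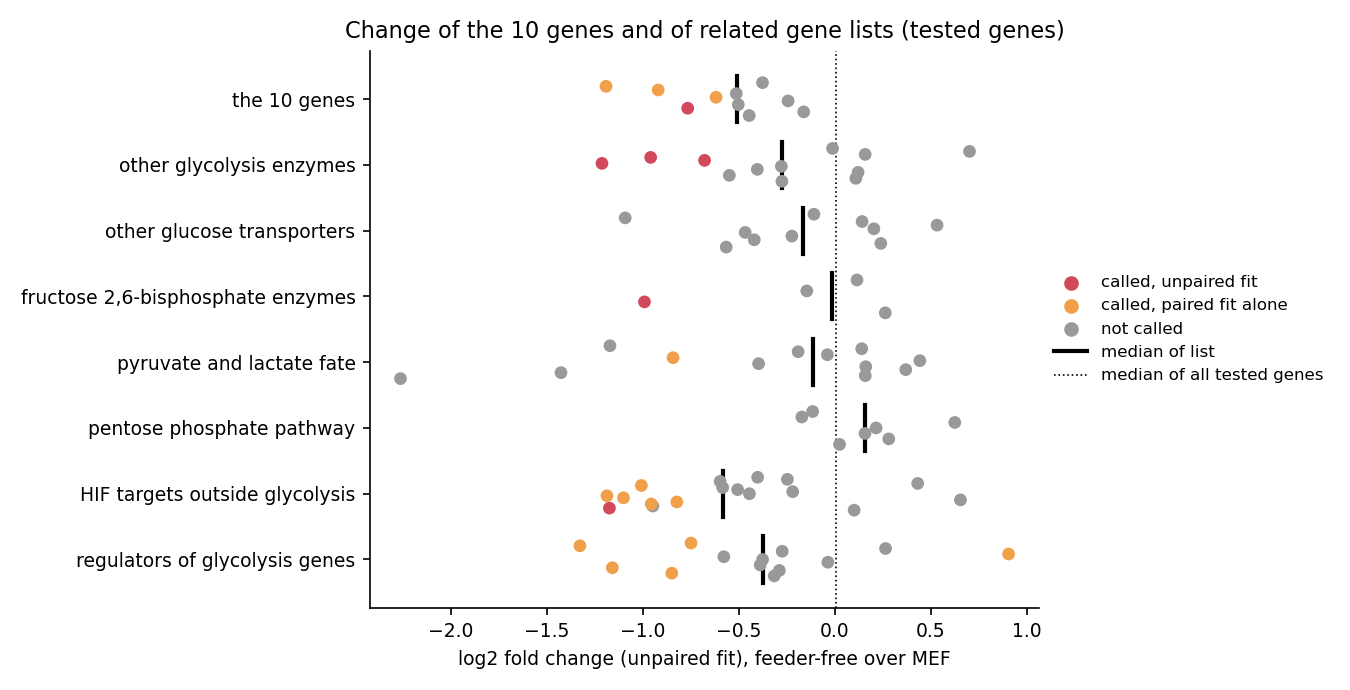
Log2 fold change of each tested gene, feeder-free over MEF, in the 10 genes and in 7 related lists, with a thick bar at each list's median and a dotted line at the median of all tested genes. Red points were called in the unpaired fit and orange points in the paired fit alone. The medians of the 10 genes, at -0.51, and of HIF targets outside glycolysis, at -0.58, lie farthest to the left, and that of the pentose phosphate pathway, at 0.16, lies right of the dotted line.

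Genes whose pattern over the 8 libraries was most like the mean of the 10 genes were sought among 9379 others with a mean of at least 10 CPM, as a description. The closest were KREMEN1, a WNT co-receptor antagonist, with a Pearson correlation of 0.992, AKR1A1, an aldehyde reductase (0.990), DCK, deoxycytidine kinase (0.990), PYGL, liver glycogen phosphorylase (0.988), NUDT3 (0.985), SVOP (0.983), EGLN1 (0.981) and ARHGAP33 (0.979). All of these were lower in 4 of 4 lines, against 20.7% of tested genes, but choosing them by likeness to the 10 genes largely fixed this direction. With condition means taken out, the closest were INTS12 (0.988), KREMEN1 (0.982), MPI, the mannose phosphate isomerase (0.980), PYGL (0.978) and SHTN1 (0.968). INTS12 followed the differences between lines, but between conditions it went the other way from the 10 genes, with a log2 fold change of 0.23. It was lower in 0 of 4 lines, at a mean of 10.6 CPM on MEF and 12.4 CPM in feeder-free conditions.

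On the ARS-UCD2.0 assembly, with gene positions from RefSeq, the 10 genes lie on 8 chromosomes and 3 of them on chromosome 5: SLC2A3 (101438340 to 101522167), ENO2 (103538376 to 103546538) and TPI1 (103580104 to 103583461). ENO2 and TPI1 are 33565 bases apart. SPSB2, which lies between them with a mean of 0.549 CPM, was not called at 0.94 on the log2 scale, and the genes on the outer sides, ATN1 and USP5, had -0.00 and -0.07. The other genes are ALDOA (chromosome 25, 26212564 to 26218429), ALDOC (19, 20030298 to 20033814), PGK1 (X, 74244892 to 74267571), PGAM1 (26, 18649174 to 18655669), ENO1 (16, 44552732 to 44566773), PKM (10, 19137913 to 19164576) and SLC2A1 (3, 103309108 to 103337308). PGK1 overlaps TAF9B, which had 6441 counts in all against 551901 for PGK1, and ALDOA overlaps LOC132343858, with 439 counts against 849644. Glycolysis genes have processed copies in mammalian genomes, and counts of those nearly identical to a copy are uncertain.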

How the data were processed

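RNA of 8 cultures was sequenced as paired reads after library preparation with a NEBNext Ultra II kit. The authors trimmed reads with Trimmomatic, aligned them to ARS-UCD2.0 with STAR, removed optical duplicates with Picard and low-quality alignments with samtools, and deposited raw counts per gene from featureCounts (Subread 1.6.2 in the submitters' processing notes). The strand setting, and whether reads or pairs were counted, are not given in the sources used here. According to the methods, bovine-aligned reads of MEF sequenced alone were subtracted from the MEF-culture counts. That sample was not analysed here, and no source used here says whether the deposited MEF counts are those before or after this step, so MEF levels may include feeder reads. The records name Trizol for the RNA and the methods RNeasy.

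Of 32640 genes listed, 3 had no values, and 0 columns were unused. Counts were tested as deposited with edgeR 4.0.16 in R 4.3.3 (filterByExpr, TMM, glmQLFit, glmQLFTest) on condition alone. The study's methods name edgeR, the removal of low counts, TMM, no batch correction and the thresholds used. The filter function, the quasi-likelihood test and the design formula were chosen here. CPM were TMM-scaled, and log2 CPM used a prior count of 2. Ratios were tested by exact permutation. The scripts were tested on simulated data. The 2 libraries of a line came from the same cell line, and their deviations from the condition means correlated at 0.421 to 0.664 (other lines -0.523 to 0.249), so line was the block of the paired fit. Lines are separate cell lines, and libraries within a condition differed beyond sampling noise (smallest chi-square per degree of freedom 40.8).

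The 10 genes and all lists were chosen with earlier results of these data known. From each list every gene called in the unpaired fit was named, or where none was called the 2 with the highest mean CPM. SALL4, SOX2, LIN28B, EPCAM, TUBB3, TWIST2, FAP, SPSB2, ATN1, USP5, GAPDH, PFKP, ENO3, PDK1, CA9, VEGFA, HIF1A, EPAS1, LDHA and the genes named as called in the paired fit alone were named after their values were seen. Alternatives were RLE factors, no scaling, other count filters, the likelihood ratio test, DESeq2 1.42.0, limma-voom 3.58.1, the replicate block, other fold thresholds, each library or line left out, and for ratios a prior count of 0.5. Levels per transcript length, sequences and promoter motifs were not analysed here.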

Additional observations from a re-analysis of the deposited data

Results flagged for a closer look

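The ratio of SLC2A3 to SLC2A1 in the MEF library of line D was 4.16 on the log2 scale, whereas the other 3 MEF libraries lay between 3.91 and 3.94. Its gap to the nearest was 0.898 of the range, above the 95% critical value of 0.829 of Dixon's test. Of 32 groups of 4 libraries examined 1 stood out in this way, and chance gives 1.6. In feeder-free conditions line D had the lowest ratio, 2.95, with the other lines between 3.50 and 3.97. Line D also had the widest change of this ratio, -1.21.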

How the results depend on the processing

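All 10 genes had a log2 fold change below 0 in the main fit and under all alternatives run, including those that left out a library or a line. The number called lower, 1 in the unpaired fit, depended on the processing. It was 0 without a filter on low counts and at a threshold of 2-fold, 2 with at least 10 counts in every library, 3 with edgeR's likelihood ratio test, and 4 with DESeq2 and with the replicate block. Genes called lower among all tested rose as well, from 1.00% to 1.53% with the filter of 10 counts, 2.47% with the likelihood ratio test, 3.57% with DESeq2 and 4.53% with the block. It was 1 with RLE factors, library size alone, limma-voom or no fold threshold. With a library or a line left out it ranged from 0 to 2, with 2 (ENO1 and SLC2A1) when line A's feeder-free library was left out and 0 in each of the others. In those with 0, edgeR's quasi-likelihood test gave an unadjusted p under 0.05 for 5 to 8 of the 10 genes. The share of all tested genes at that p was not found for these settings. In the main fit it was 11.4% lower and 10.2% higher. ENO1 had adjusted p values of 0.0389 to 0.240 (same test) and log2 fold changes of -0.84 to -0.71 over all settings that left out a library or a line. In several of them few genes of any kind were called, 0 to 7 lower over all tested genes for those with 0 of the 10. In the paired fit the count of 4 became 2 without line E (SLC2A1 and ENO1) and 3 without D, a setting chosen after the data were examined, so it ranged from 2 to 4. The 3 other glycolysis enzymes called lower became 1 with library size alone and 1 at 2-fold, and 0 to 3 with a library or line left out. SLC2A3 ranged widest, from -1.46 to -0.94. Beyond SLC2A1, SLC2A3 and PGK1, the replicate block changed no call among glycolysis enzymes and ratios. With 4 lines per condition, changes under 1.5-fold, as in 6 of the 10 genes, could not be called at any depth by the thresholds used.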

Other observations

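LDHA, the lactate dehydrogenase subunit that HIF is known to raise, differed widely between lines within each condition. Chosen after its values were seen, it was at 125 CPM in line A, 9.90 in C, 5.57 in D and 583 in E on MEF, and at 45.5 in A, 28.0 in C, 5.48 in D and 72.0 in E in feeder-free conditions. Lines C and D were low and lines A and E high in both conditions, and LDHA was lower without feeders in 3 of 4 lines and higher in line C. Its log2 fold change of -2.26 had an adjusted p of 0.356 from edgeR's quasi-likelihood test, and the paired fit gave -0.79 with an adjusted p of 0.401. LDHB, which encodes the other subunit, lay between 1139 and 1578 CPM in all 8 libraries.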
